A study of Homo sapiens with 18 samples.

Results

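The genes described are 39 Polycomb and KMT2 group chromatin regulators, taken as a list by name. The list was made with earlier results of these data known. Of the 39, 38 were found by symbol among the 20329 genes counted in RNA of HAP1 cells, and the remaining gene, PCGF2, could not be matched to an identifier and has no value. HAP1 is a near-haploid human cell line that descends from a leukaemic line and grows attached to the dish. Its polyadenylated RNA was sequenced in 18 samples, 3 for each of 6 groups, to ask how gene expression differs when the cohesin release factor WAPL, the cohesin loader subunit SCC4 (gene MAU2), or both are missing.

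The groups were wild-type HAP1 cells (control A), ΔWAPL cells of clone 3.3, ΔSCC4 cells and ΔWAPL/ΔSCC4 cells, which form set A, and wild-type cells (control B) with ΔWAPL cells of clone 1.14, which form set B. The knockouts were made with CRISPR and a drug resistance cassette, Blasticidin for WAPL and Puromycin for SCC4, and ΔWAPL/ΔSCC4 cells were made by knocking out SCC4 in ΔWAPL cells. Each group stands for 1 line, so that an effect of the genotype and an effect of the clone cannot be told apart within it. The sets were read from a prefix that the deposited tables share. Nothing in the sources says whether the 3 samples of a group were separate cultures, so p-values measure the spread between these samples, which may be technical.

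Polycomb repressive complex 2 (PRC2) places methyl groups on lysine 27 of histone H3 (H3K27) through EZH1 or EZH2, and Polycomb repressive complex 1 (PRC1) binds this mark through CBX proteins and ubiquitinates histone H2A through RING1 or RNF2. The KMT2 enzymes, the mammalian trithorax group, methylate lysine 4 of histone H3 (H3K4) at promoters and enhancers with a shared core of WDR5, RBBP5, ASH2L and DPY30, and KDM6A and KDM6B take methyl groups off H3K27. Both groups are known for holding developmental genes such as the HOX clusters in their silent or active state, and cohesin is known to shape the contacts between such regions.

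The total count on genes was 10007646 to 20711127 per sample, with a median of 16177867. WAPL messenger RNA was 78.1 to 131 CPM (counts relative to library size, normalised by TMM over all 18 samples) in the 6 controls and 37.98 to 50.2 CPM in the ΔWAPL and ΔWAPL/ΔSCC4 samples, without overlap. MAU2 was 61.3 to 72.7 CPM in control A and 0.509 to 1.04 CPM in the 6 samples that lack SCC4. Of 6 blood markers the sum was 0.0603 to 0.553 CPM and SPI1 was at 0 in every sample. The libraries differed in base composition: Spearman's rho between the deviation of a gene from its group mean and its GC content ran from -0.63 to 0.72, and was highest in control A sample 1 (0.70), clone 3.3 sample 3 (0.69) and ΔSCC4 sample 1 (0.72). The part of this gradient in the results below was not tested beyond the fits named beside them.

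All 38 genes were detected in every sample. The lowest count of any of them in any sample was 68, and the highest level of a gene over the 18 samples was between 1.34 and 3.13 times its lowest. Per length, the median of the 38 was 13.6 CPM per kb of canonical transcript against 9.34 over the 12772 expressed genes with a length, and 28 of the 38 were above that median.

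The PRC2 core held the 2 highest levels per length. RBBP7, a histone-binding subunit shared with other complexes, was at 197 CPM per kb, followed by its paralog RBBP4 at 61.7 CPM per kb. The catalytic subunit EZH2 stood at 34.1 CPM per kb and its paralog EZH1 at 6.79 CPM per kb. The scaffold subunits SUZ12 and EED, without which the enzyme is not active, stood at 24.2 and 19.0 CPM per kb. The accessory subunits that guide PRC2 to its sites ran from 7.03 CPM per kb for JARID2 to 19.1 CPM per kb for PHF19, between the levels of EZH1 and SUZ12.

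In PRC1, RING1 was above RNF2 at 24.4 against 14.3 CPM per kb. Among the PCGF subunits, which set the type of PRC1, BMI1 was at 15.2 CPM per kb, PCGF3, PCGF6 and PCGF1 were between 11.2 and 13.6, and PCGF5 was at 6.99. The CBX subunits, the readers of methylated H3K27, ran from CBX2 at 32.8 through CBX6 at 16.3 and CBX8 at 7.47 to CBX7 at 1.84 CPM per kb, the lowest level of the 38 genes. PHC2 and SCMH1, partners of the PRC1 core, were at 22.1 and 19.1 CPM per kb, above PHC1 at 5.02 and PHC3 at 3.85.

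The KMT2 enzymes were at lower levels per length than their core partners. KMT2A, KMT2D and KMT2B stood at 12.6, 11.2 and 10.3 CPM per kb, ASH1L, a methyltransferase of the trithorax group for lysine 36, at 8.13, and KMT2C at 5.94. DPY30, WDR5 and ASH2L were at 45.5, 44.6 and 42.4 CPM per kb, levels that lie within a narrow range, while menin (MEN1), which binds KMT2A and KMT2B, was at 31.2 and RBBP5 at 12.9. Of the H3K27 demethylases, KDM6A was at 11.3 and KDM6B at 6.39 CPM per kb. DPY30 shares part of its strand with MEMO1 (median 28.9 CPM), and reads in the shared part could be assigned to either gene or dropped. BMI1 overlaps the read-through gene COMMD3-BMI1, whose count was 0 in every sample.

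**Figure D1:**
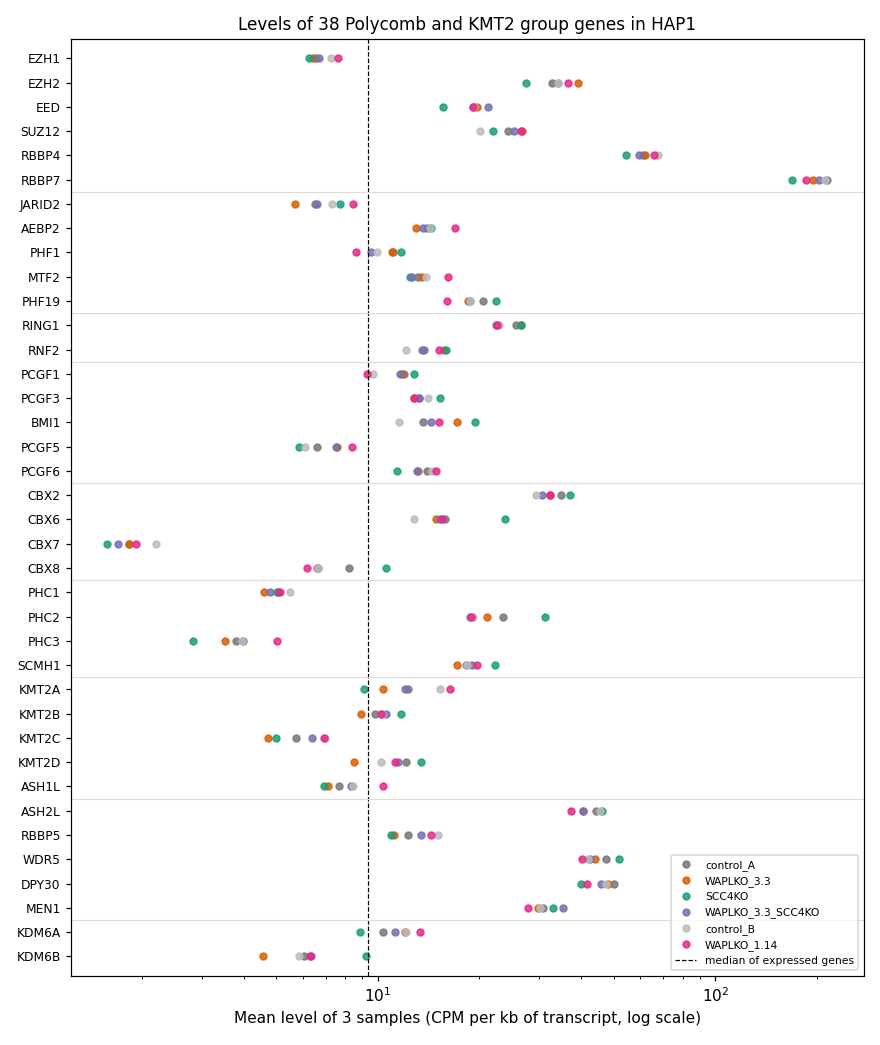
Mean level of each of 38 genes in each of 6 groups (points, 3 samples each), in CPM per kb of canonical transcript on a log scale, with genes ordered by role and grey lines between roles. Most points of a gene lie close together, RBBP7 is highest and CBX7 lowest, and the dashed line marks the median of expressed genes at 9.34 CPM per kb.

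Replicates of 1 group differed more for the genes with long transcripts. The pooled within-group SD of log2 CPM was a median of 0.36 for the 5 members with a transcript over 10 kb (KMT2A, KMT2C, KMT2D, ASH1L and PHC3, from 0.22 to 0.40), against a median of 0.14 for the other 33 members. Over all expressed genes it was 0.17, and 0.29 for the 585 expressed genes over 10 kb. KMT2C was 57.2, 81.1 and 152 CPM in the 3 samples of control A, and KMT2A was 140, 167 and 306 CPM in the same samples. In both genes sample 3 was the highest, and this is the sample whose deviations rose most with transcript length (Spearman's rho 0.55 over genes).

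**Figure D2:**
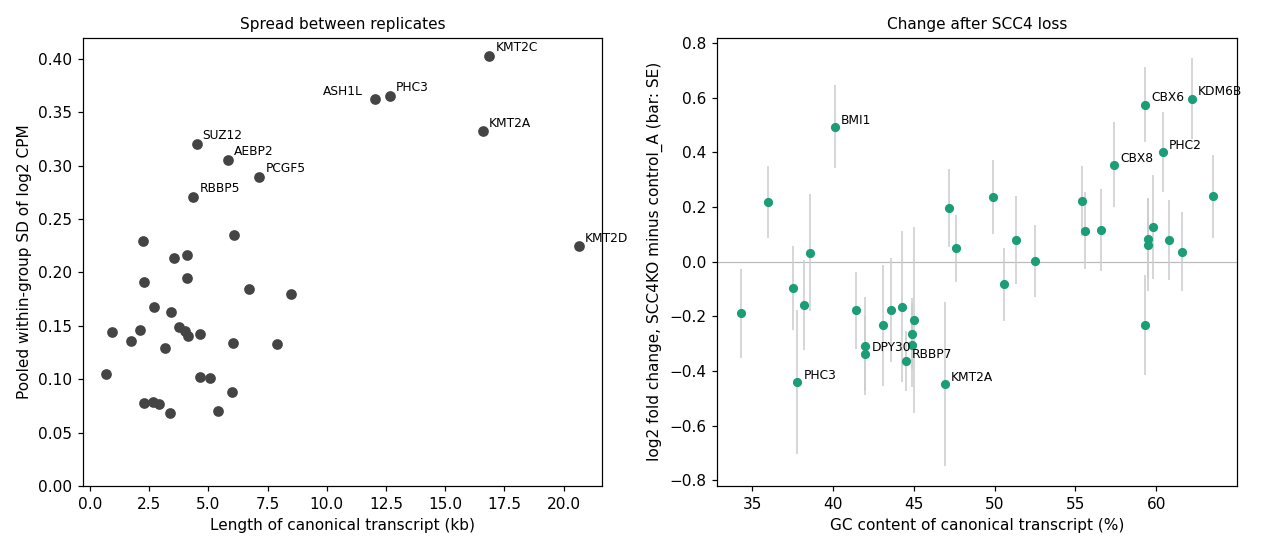
Left, pooled within-group SD of log2 CPM of each of 38 genes against the length of its canonical transcript in kb; 4 of the 5 genes over 10 kb have the highest SDs and KMT2D, the longest, is at 0.22. Right, log2 fold change of ΔSCC4 over control A with its SE against the GC content of the transcript in percent; genes of high GC content lie mostly above 0 and CBX6 and KDM6B are the 2 past the threshold.

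Loss of SCC4 was compared with control A to see whether the loader alters these genes. CBX6 and KDM6B rose, and no member fell past the threshold (adjusted p 0.05, edgeR quasi-likelihood test). CBX6, a CBX reader of PRC1, was 102, 96.2 and 88.9 CPM in control A and 163, 139 and 130 CPM in ΔSCC4. KDM6B, which removes methyl groups from H3K27, was 43.9, 36.8 and 41.6 CPM in control A and 69.9, 55.2 and 61.2 CPM in ΔSCC4. In both genes every ΔSCC4 sample was above every control A sample. The log2 fold changes were 0.57 ± 0.14 (SE) for CBX6, with an adjusted p of 0.0230 by edgeR, and 0.60 ± 0.15 for KDM6B, with an adjusted p of 0.0284 by edgeR. The 2 fusion partners of the parental line, BCR and ABL1, summed to 80.4 to 92.2 CPM in ΔSCC4 against 42.3 to 54.5 CPM in control A, and the blood markers to 0.390 to 0.553 against 0.130 to 0.247 CPM, both without overlap, while the epithelial and fibroblast sums overlapped; the part of these in the values was not tested. As these are bulk samples, fewer cells of a type and less RNA per cell cannot be told apart.

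These 2 of 38 members stand beside 9.49% of all 12503 genes tested that passed in this comparison. DESeq2 called CBX6 and KDM6B (9.93% of all genes). The call of CBX6 was lost without ΔSCC4 sample 1 (adjusted p 0.101 by edgeR), ΔSCC4 sample 2 (0.075), control A sample 2 (0.121) or control A sample 3 (0.0595), and the call of KDM6B was lost without ΔSCC4 sample 1 (0.104) or control A sample 2 (0.182). Leaving out control A sample 1 gave 4 members, with PHC2 higher and PHC3 lower added, where 18.3% of all genes passed. Without control A sample 1 and ΔSCC4 sample 1 together, a choice made after seeing the GC gradients, CBX6 and KDM6B both passed, at log2 fold changes of 0.53 and 0.56.

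Samples with the same number deviated together in ΔSCC4 and control A, and when that number entered as a replicate block 19 of the 38 members passed, where 46% of all genes did. The count of members was near that share. This pairing was read from the same counts (correlations 0.74, 0.16 and 0.68) and is stated by no label. The blocked calls are therefore a description and no separate support. Under the block 10 rose (22.3% of all genes rose; BMI1, CBX6, CBX8, JARID2, KDM6B, KMT2B, PCGF3, PHC2, RNF2 and SCMH1) and 9 fell (23.7% of all genes fell; DPY30, EED, EZH2, KDM6A, KMT2A, PCGF6, PHC3, RBBP4 and RBBP7). By role, 4 of the 6 PRC2 core genes fell and none rose in the blocked fit: RBBP7 fell by 0.37 on the log2 scale, EED by 0.31, EZH2 by 0.26 and RBBP4 by 0.17. The unblocked log2 fold changes of all 6 PRC2 core genes were below 0, with a median of -0.22 against 0.00 over all genes tested, and none of the 6 passed there. The PRC1 genes went both ways in the blocked fit. BMI1 (log2 fold change 0.50), PHC2 (0.40) and CBX8 (0.35) rose beside CBX6, PCGF3, RNF2 and SCMH1, while PCGF6 and PHC3 fell.

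The direction of the changes went with base composition across the members. Over the 38 genes, the log2 fold change of ΔSCC4 against control A had a Pearson r of 0.53 and a Spearman rho of 0.53 with the GC content of the transcript, and over 12323 genes the values were 0.16 and 0.29. These points share the same 6 libraries. With an offset for GC content in the model, 5 members rose without the block (BMI1, CBX6, CBX8, KDM6B and PHC2, where 20.6% of all genes passed) and none fell, and with both the block and the offset 17 passed, 8 higher and 9 lower, where 46.3% of all genes did. BMI1, EZH2, EED and RBBP7 passed with the block in either case, while RBBP4, KDM6A, KMT2B and SCMH1 were called without the offset and not with it. Against all 6 controls 7 members passed, where 21.4% of all genes did: BMI1, CBX6, CBX8, KDM6B and PHC2 were higher and EZH2 and RBBP7 lower.

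EZH2 and RBBP7 were below control A in every ΔSCC4 sample. EZH2 was 78.9, 93.0 and 89.4 CPM in control A and 70.2, 70.8 and 78.4 CPM in ΔSCC4. RBBP7 was 484, 514 and 475 CPM in control A and 362, 402 and 390 CPM in ΔSCC4. The unblocked log2 fold changes were -0.26 ± 0.13 (SE) for EZH2, with an adjusted p of 0.258 by edgeR, and -0.36 ± 0.11 for RBBP7, with an adjusted p of 0.0658 by edgeR. In all, 10 members had groups that did not overlap, 7 higher and 3 lower, against 26.7% of all genes tested. The 95% interval of the change, from its SE, stayed within 2-fold for 36 of 38 members, and the widest was that of KMT2A, from -1.11 to 0.22 on the log2 scale.

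In a test given below, of whether the effect of SCC4 loss depended on WAPL, BMI1 and RBBP7 passed. BMI1 also passed in 16 of 21 alternatives to that fit, and RBBP7 in 5 of 21. The promoters of the 2 genes that rose after SCC4 loss are shown with those of BMI1 and RBBP7. Each is the stretch of 250 bases before the start of the gene in RefSeq (GRCh38.p14; for genes with several starts, the first listed), read in the direction of the gene, with capitals marking GGGCGG on either strand, the GC box bound by Sp1-type factors.
CBX6, chr22:38872217-38872466, minus strand: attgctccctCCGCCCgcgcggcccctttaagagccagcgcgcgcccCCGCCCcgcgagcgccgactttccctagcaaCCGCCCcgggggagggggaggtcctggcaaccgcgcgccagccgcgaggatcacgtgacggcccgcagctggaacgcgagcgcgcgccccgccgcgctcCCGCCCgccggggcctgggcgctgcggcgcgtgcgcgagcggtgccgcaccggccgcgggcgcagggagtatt
KDM6B, chr17:7833967-7834216, plus strand: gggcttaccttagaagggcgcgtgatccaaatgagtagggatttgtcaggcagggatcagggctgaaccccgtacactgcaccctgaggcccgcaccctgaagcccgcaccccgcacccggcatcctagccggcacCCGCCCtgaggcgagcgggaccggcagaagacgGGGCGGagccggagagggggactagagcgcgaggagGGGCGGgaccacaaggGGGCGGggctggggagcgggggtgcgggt
BMI1, chr10:22320849-22321098, plus strand: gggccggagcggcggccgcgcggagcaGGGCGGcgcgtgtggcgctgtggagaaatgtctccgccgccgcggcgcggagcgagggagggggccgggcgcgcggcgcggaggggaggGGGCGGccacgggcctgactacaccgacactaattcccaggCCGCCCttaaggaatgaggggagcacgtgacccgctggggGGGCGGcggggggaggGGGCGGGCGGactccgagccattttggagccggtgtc
RBBP7, chrX:16870363-16870612, minus strand: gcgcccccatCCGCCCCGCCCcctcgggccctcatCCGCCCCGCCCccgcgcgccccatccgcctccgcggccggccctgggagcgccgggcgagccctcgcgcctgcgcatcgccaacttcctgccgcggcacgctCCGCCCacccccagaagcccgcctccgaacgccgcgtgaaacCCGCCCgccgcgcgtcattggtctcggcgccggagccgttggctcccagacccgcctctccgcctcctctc

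All 4 promoters shown hold more than 1 GC box. The second start that RefSeq lists for KDM6B, with the promoter chr17:7839667-7839916, has no GC box and 1 CpG, the fewest of the member promoters. GGGCGG occurred at 4 places in the promoters of CBX6 and KDM6B and at 6 in those of BMI1 and RBBP7, overlapping matches counted separately. Of all 35116 promoters listed by RefSeq 42.6% held it, and so did 40 of the 50 promoters listed for 34 of the members (80%). The CpG count was 45 for CBX6, 21 for KDM6B, 35 for BMI1 and 40 for RBBP7, with medians of 27.5 over the member promoters and 11 over all. A match is a description of the letters and not a bound site.

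In ΔWAPL cells of clone 3.3, no member passed the threshold against control A, where 8.07% of 12489 genes did. At an unadjusted p under 0.05 there were 2, KMT2D and KDM6B, where 17.5% of all genes were, and DESeq2 called 0 (8.14% of all genes). KMT2D, an enhancer H3K4 methyltransferase, was 280, 178 and 294 CPM in control A and 138, 182 and 207 CPM in clone 3.3, groups that overlap, with a log2 fold change of -0.53 ± 0.20 and an adjusted p of 0.146 by edgeR. KDM6B was 22.4, 32.8 and 37.01 CPM in clone 3.3, with a log2 fold change of -0.43 ± 0.19 and an adjusted p of 0.243 by edgeR. Without control A sample 2 KMT2D was called lower, and without control A sample 1 and clone 3.3 sample 3 KDM6B was called lower.

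The log2 fold changes in clone 3.3 were mostly small and below 0. They were below 0 for 28 of 38 members, with a median of -0.11 against 0.00 over all genes tested, and for all 5 KMT2 and ASH1L methyltransferases and all 5 of their core partners. EZH2 was 110, 99.5 and 102 CPM, above all 3 control A samples, with a log2 fold change of 0.24 ± 0.14 and an adjusted p of 0.426 by edgeR. CBX8 and SCMH1 were below control A in every sample, so that 3 members did not overlap, where 23.3% of all genes tested did not. The 95% interval stayed within 2-fold for all 38 members and within 1.5-fold for 30. The sum of the 5 fibroblast markers was 445 to 477 CPM in clone 3.3 against 523 to 669 CPM in control A, with DCN at 0 in both and COL1A2 at 0 in clone 3.3, and the other 3 sums overlapped; the part of these markers in the values was not tested.

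In ΔWAPL cells of clone 1.14, JARID2 and CBX6 rose and RBBP7 and ASH2L fell against control B. These are 4 of 38 members, beside 20.1% of 12636 genes tested. JARID2, an accessory subunit of PRC2, was 42.4, 44.4 and 44.8 CPM in control B and 51.2, 49.7 and 51.3 CPM in clone 1.14. CBX6 was 82.0, 79.2 and 70.8 CPM in control B and 97.3, 95.4 and 88.7 CPM in clone 1.14. In both genes the groups did not overlap, and the log2 fold changes were 0.21 ± 0.06 (adjusted p 0.0401 by edgeR) and 0.27 ± 0.08 (adjusted p 0.0424 by edgeR).

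RBBP7 was 481, 493 and 477 CPM in control B and 424, 432 and 419 CPM in clone 1.14, and fell by 0.19 on the log2 scale (SE 0.04, adjusted p 0.0197 by edgeR). ASH2L, of the KMT2 core, was 129, 141 and 128 CPM in control B and 102, 116 and 109 CPM in clone 1.14, and fell by 0.29 on the log2 scale (SE 0.07, adjusted p 0.0245 by edgeR). Every clone 1.14 sample was below every control B sample for both genes. The folds were small, at 0.875 for RBBP7 and 0.817 for ASH2L. PHF1, an accessory subunit of PRC2, was 23.4, 22.4 and 21.7 CPM in control B and 19.6, 19.6 and 19.4 CPM in clone 1.14, without overlap, at a log2 fold change of -0.21 ± 0.07 and an adjusted p of 0.0692 by edgeR. In clone 1.14 the sum of 4 epithelial markers was 41.6 to 47.6 CPM against 56.8 to 72.2 CPM in control B, that of 5 fibroblast markers 370 to 398 against 478 to 543 CPM, with DCN at 0 in both, and that of BCR and ABL1 35.5 to 36.3 against 42.4 to 42.98 CPM, all without overlap, and the blood markers overlapped. The part of these markers in the 4 changes was not tested.

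Single libraries decided the count in clone 1.14. Without clone 1.14 sample 1 or 3, or control B sample 1, no member passed (adjusted p of the 4 genes by edgeR from 0.0509 to 0.156), and without clone 1.14 sample 2 only RBBP7 and ASH2L did. Without control B sample 3, 14 passed, 10 higher and 4 lower, where 37.9% of all genes did. Against all 6 controls CBX6 did not pass (log2 fold change 0.11, adjusted p 0.495 by edgeR), and DESeq2 called 3 of the 4, without JARID2 (16.2% of all genes). In all, 11 members did not overlap between the groups, 5 higher (EZH2, JARID2, BMI1, CBX6 and SCMH1) and 6 lower (RBBP7, PHF1, PHF19, PCGF3, ASH2L and DPY30), where 42.5% of all genes tested did not.

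**Figure D3:**
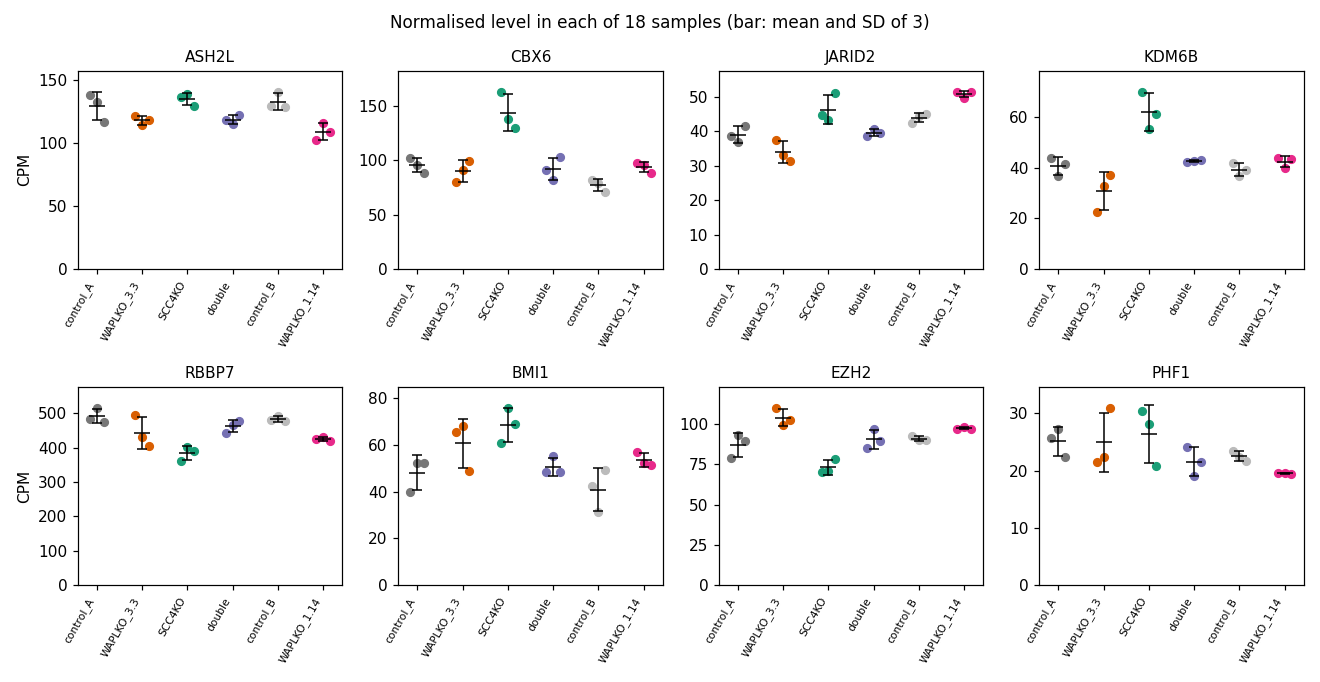
CPM in each of 18 samples (points) for 8 genes, with the mean and SD of each group of 3 (black); the axes start at 0 and double stands for ΔWAPL/ΔSCC4. CBX6 and KDM6B are highest in ΔSCC4, RBBP7 and EZH2 are lowest there, and in ΔWAPL/ΔSCC4 all 8 genes overlap with control A.

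When the 2 clones were tested in 1 fit with the set as a covariate, BMI1 rose and ASH2L fell, 2 of 38 members beside 17.7% of 12786 genes. BMI1, the PCGF subunit of canonical PRC1, was 39.7, 52.5 and 52.4 CPM in control A and 65.4, 68.3 and 48.8 CPM in clone 3.3, groups that overlap. It was 42.4, 31.3 and 49.2 CPM in control B and 57.1, 52.4 and 51.6 CPM in clone 1.14, groups that do not. In this joint fit the log2 fold change was 0.36 ± 0.12 for BMI1 (adjusted p 0.0461 by edgeR) and -0.21 ± 0.07 for ASH2L (adjusted p 0.0432 by edgeR). ASH2L was 138, 133 and 117 CPM in control A and 122, 114 and 118 CPM in clone 3.3, groups that overlap. The 2 genes changed in the same direction in each clone, with log2 fold changes of 0.32 and 0.39 for BMI1 and -0.15 and -0.29 for ASH2L.

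Both adjusted p-values were near 0.05. Adding a block for the replicate number left no member called (12% of all genes; adjusted p 0.0782 for BMI1 and 0.124 for ASH2L by edgeR), and DESeq2 called 4, adding EZH2 higher and RBBP7 lower (19.6% of all genes). Leaving out 1 library gave 0 to 5 members: none without any 1 of the 3 clone 1.14 samples, clone 3.3 sample 2, control A sample 2, or control B sample 1 or 2, and 5 without control A sample 3, where 22.2% of all genes passed. BMI1 was also lost without clone 3.3 sample 1 (adjusted p 0.0906 by edgeR) or control A sample 1 (0.1), and ASH2L without control A sample 1 (0.0507) or control B sample 3 (0.0601).

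No member passed the test of a difference between the clones, where 2.65% of all genes did. At an unadjusted p under 0.05 there were 4 (JARID2, CBX6, KMT2D and KDM6B) beside 10.9% of all genes, and DESeq2 called 0 (2.95% of all genes). Clone 3.3 was the lower of the 2 in each of these 4, with differences in log2 fold change of -0.41 for JARID2, -0.36 for CBX6, -0.66 for KMT2D and -0.52 for KDM6B. The difference of KMT2D was called when control A sample 2 was left out, and those of CBX6 and KDM6B when the GC offset was added. Across the 38 members the difference had a Pearson r of -0.68 and a Spearman rho of -0.63 with transcript length. Over 12586 genes the values were -0.14 and -0.36, so the relation was not confined to the members.

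**Figure D4:**
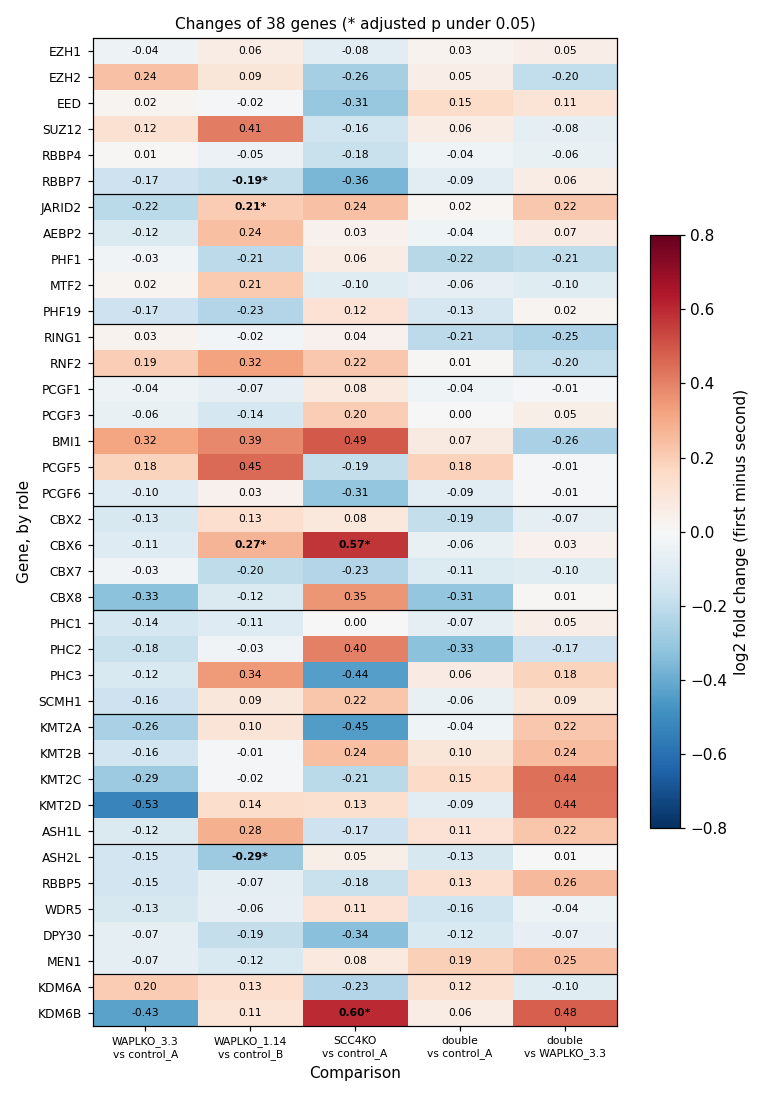
log2 fold changes of 38 genes, ordered by role, in 5 comparisons (columns, first group minus second; double stands for ΔWAPL/ΔSCC4), from blue (lower) to red (higher), with a star for an adjusted p under 0.05 by edgeR. The starred cells are CBX6 and KDM6B in ΔSCC4 and RBBP7, JARID2, CBX6 and ASH2L in clone 1.14, and no cell reaches 2-fold.

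In ΔWAPL/ΔSCC4 cells no member passed against control A, where 7.95% of 12594 genes did. At an unadjusted p under 0.05 there was 1, PHC2, where 17.6% of all genes were, and DESeq2 called 0 (8% of all genes). PHC2, a polyhomeotic subunit of PRC1, was 107, 92.3 and 82.8 CPM in control A and 79.1, 66.9 and 78.9 CPM in ΔWAPL/ΔSCC4, without overlap, with a log2 fold change of -0.33 ± 0.14 and an adjusted p of 0.237 by edgeR. CBX6 was 91.6, 82.3 and 103 CPM and KDM6B was 42.4, 42.6 and 42.9 CPM, both overlapping control A, with log2 fold changes of -0.06 ± 0.13 and 0.06 ± 0.12. The median log2 fold change of the 38 was -0.04, and the 95% interval stayed within 2-fold for all 38 and within 1.5-fold for 32. PHC2 and CBX8 were the members whose groups did not overlap, both lower, where 22.6% of all genes tested did not overlap.

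In these samples too, some sums of markers differed from control A, in opposite directions. The sum of 4 epithelial markers was 107 to 130 CPM in ΔWAPL/ΔSCC4 and 57.8 to 81.9 CPM in control A, with CDH1 at 0 in ΔWAPL/ΔSCC4. That of 5 fibroblast markers was 266 to 305 CPM against 523 to 669 CPM, with COL1A2 at 0 in ΔWAPL/ΔSCC4 and DCN at 0 in control A. The blood markers overlapped, and so did the sum of BCR and ABL1. The part of these markers in the values was not tested. KMT2C was called higher when control A sample 3 was left out.

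Against clone 3.3, from whose genotype they differ by SCC4, ΔWAPL/ΔSCC4 cells showed no member past the threshold, where 10.6% of 12544 genes passed. At an unadjusted p under 0.05 there were 3, KDM6B, KMT2C and KMT2D, all higher, where 22.9% of all genes were. KMT2D was 229, 228 and 255 CPM in ΔWAPL/ΔSCC4, above the 3 clone 3.3 samples, with a log2 fold change of 0.44 ± 0.14 and an adjusted p of 0.0508 by edgeR. KDM6B was above clone 3.3 in every sample too, with a log2 fold change of 0.48 ± 0.16 and an adjusted p of 0.0653 by edgeR, and KMT2C had a log2 fold change of 0.44 ± 0.15 and an adjusted p of 0.0841 by edgeR, with groups that overlap. DESeq2 called KDM6B and KMT2D (10.4% of all genes). The fit without a filter, whose share over all genes is not given, called all 3. The replicate block also called all 3 (14.5% of all genes). Replicate numbers did not pair these samples (correlations -0.39, 0.08 and 0.40), so the blocked calls add no support.

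Leaving out clone 3.3 sample 3 called KDM6B and KMT2D higher and BMI1 lower, leaving out clone 3.3 sample 2 or ΔWAPL/ΔSCC4 sample 3 called KMT2C, leaving out ΔWAPL/ΔSCC4 sample 2 called KMT2D, and leaving out clone 3.3 sample 1 called RBBP5. All 5 KMT2 and ASH1L methyltransferases had a log2 fold change above 0, with a median of 0.24. Over the 6 shared libraries, the change of the 38 members had a Pearson r of 0.65 and a Spearman rho of 0.50 with transcript length. Over 12358 genes the values were 0.04 and 0.16. In all, 5 members did not overlap, JARID2, KMT2D and KDM6B higher and EZH2 and RING1 lower, where 27.8% of all genes tested did not.

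Whether the effect of SCC4 loss depended on WAPL was tested as an interaction of the 2 genotypes in the 12 samples of set A. BMI1 and RBBP7 passed, 2 of 38 members beside 11.3% of 12817 genes. BMI1 was 61.0, 75.7 and 68.9 CPM in ΔSCC4, above all 3 control A samples, and 48.6, 55.2 and 48.4 CPM in ΔWAPL/ΔSCC4, overlapping control A and clone 3.3. The log2 fold change of SCC4 loss was 0.49 ± 0.15 in wild-type cells and -0.26 ± 0.14 in ΔWAPL cells, and the interaction was -0.74 ± 0.20 (adjusted p 0.0279 by edgeR). The change in wild-type cells alone had an adjusted p of 0.0738 by edgeR, and that in ΔWAPL cells 0.281.

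RBBP7 was 495, 430 and 405 CPM in clone 3.3 and 442, 466 and 478 CPM in ΔWAPL/ΔSCC4, groups that overlap, beside its lower level in ΔSCC4 than in control A. The interaction was 0.43 ± 0.13 (adjusted p 0.0483 by edgeR). It was lost with the replicate block (adjusted p 0.0877 by edgeR), with the size factors of DESeq2 (0.0586), with no filter (0.111), with at least 10 counts in every sample (0.055), in 11 of the 12 fits that left out 1 library (all but that without clone 3.3 sample 1, where CBX6 and PHC2 were called lower beside it) and without the 3 libraries of high GC (0.232). The interaction of BMI1 passed with the block and without these 3 libraries (log2 difference -0.86, adjusted p 0.00244 by edgeR), and was lost without ΔSCC4 sample 2 (0.0811), clone 3.3 sample 1 (0.0636) or 2 (0.0974), or ΔWAPL/ΔSCC4 sample 1 (0.0741) or 3 (0.0714). CBX6 and PHC2 had interactions of -0.53 and -0.56, with adjusted p-values of 0.0779 and 0.0737 by edgeR, and were called with the GC offset. That fit called 8 members in all, 5 higher and 3 lower, and its share over all genes is not given. The 95% interval stayed within 2-fold for 32 of 38 members.

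The 2 sets of wild-type controls gave the background of such comparisons. No member passed between control B and control A, where 0.64% of 12509 genes did. At an unadjusted p under 0.05 there were 3 members beside 11.1% of all genes, and DESeq2 called 0 (1.34% of all genes). The log2 differences of the 38 ran from -0.32 to 0.30, and 8 members did not overlap between the 2 control groups (EZH1, JARID2 and RBBP5 higher and PCGF1, CBX2, CBX6, CBX8 and PHC2 lower in control B), where 19.4% of all genes tested did not. KMT2A was called when control A sample 3 was left out. CBX6 was thus lower in control B than in control A, at a log2 difference of -0.32 ± 0.13 (adjusted p 0.393 by edgeR), beside its rise of 0.27 in clone 1.14 over control B.

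The balance of paralogs was compared within samples, as the log2 ratio of their levels per length. EZH2 exceeded EZH1 by a log2 ratio of 2.32 in control A, 2.61 in clone 3.3 and 2.14 in ΔSCC4. In clone 3.3 each sample was above, and in ΔSCC4 each sample below, the 3 samples of control A. RBBP4 relative to RBBP7 moved from -1.65 in control B to -1.50 in clone 1.14, also without overlap. KDM6A relative to KDM6B had log2 ratios of 0.74 in control A, 1.42 in clone 3.3 and -0.08 in ΔSCC4, with groups that overlap. Within control A it was 0.24 in sample 1, the control of highest GC gradient, and 0.92 and 1.07 in samples 2 and 3. The transcript of KDM6A has a GC content of 43.1% and that of KDM6B 62.2%. The part of the GC gradient in the balances was not tested. An exact permutation test (two-sided) of 3 against 3 samples cannot give a p below 0.1, so none of the 24 tests over 6 pairs and 4 knockout groups could pass 0.05, and they say nothing on whether the balances changed. The p was 0.1 for the 3 differences without overlap and 0.2 for both of KDM6A and KDM6B (adjusted over the 24 tests, 0.655 for each of the 3).

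Within the pairs of equal replicate number, which deviated together in ΔSCC4 and control A, the balances were also compared. KDM6A relative to KDM6B was lower in ΔSCC4 by a log2 difference of -0.83, -0.89 and -0.75 in the 3 pairs. KMT2A relative to KMT2B differed by -0.52, -0.72 and -0.72. These genes too differ in GC content (46.9% for KMT2A and 63.5% for KMT2B), and no balance was adjusted for it. Each of the 6 balances had 1 sign in all 3 pairs, and the mean differences of the other 4 ran from -0.31 (KMT2C to KMT2D) to 0.19 (RBBP4 to RBBP7, and RNF2 to RING1). An exact test by sign flips of 3 pairs cannot give a p below 0.25, the value of all 6, so these are a description, chosen after the values were seen.

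Of 34 further genes of the same pathways, on a list of other PRC1 and PRC2 subunits, the H2A deubiquitinase complex and other KMT2 family genes and partners, 32 were found and 30 tested. No gene of this list passed in clone 3.3 or in ΔSCC4 by edgeR, where 6 and 5 of the 30 had an unadjusted p under 0.05, beside 17.5% and 23.1% of all genes. In clone 1.14, 4 of the 30 passed, beside the 20.1% of all genes: AUTS2, a subunit of PRC1 with PCGF3 or PCGF5, rose by 0.40 on the log2 scale and SCML2 by 0.29, while BCORL1 fell by 0.52 and USP7 by 0.15. AUTS2 fell by 0.69 in ΔWAPL/ΔSCC4 against control A, from a mean of 39.8 to 24.7 CPM. It was 1 of the 30 to pass there, beside 7.95% of all genes. Its interaction of WAPL and SCC4 was -0.85 ± 0.22 (adjusted p 0.0207 by edgeR), again 1 of the 30, beside 11.3% of all genes. Against clone 3.3, ΔWAPL/ΔSCC4 cells had higher HCFC1 (log2 fold change 0.76) and SETD1B (0.46), both genes of H3K4 methyltransferase complexes. These were 2 of the 30, beside 10.6% of all genes. Over both clones BCORL1 fell by 0.53 and NCOA6 by 0.27, 2 of the 30 beside 17.7% of all genes.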

How the data were processed

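Polyadenylated RNA of 18 HAP1 samples was measured. The authors deposited raw counts of reads per gene, made with HTSeq without normalization after alignment of strand-specific reads to hg19 with TopHat2 (2.0.9 in the submitters' processing notes). The HTSeq options and annotation release are not given in the sources used here. The members and lists were chosen with earlier results of these data known.

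Identifiers were paired with symbols, canonical transcript lengths and GC content from GENCODE (GRCh37), in which 96.6% of the identifiers were found. Rows that name no gene stayed out of all fits. Of gene, unassigned and ambiguous reads together, unassigned reads came to 4.80 to 6.09% and ambiguous reads to 1.71 to 2.06%. Genes were tested by edgeR (version 4.0.16 in R 4.3.3; quasi-likelihood F test) with TMM normalization, filterByExpr and Benjamini-Hochberg adjustment over all genes tested, threshold 0.05. The samples of the compared groups entered each fit. Each SE was taken as the size of the log2 fold change divided by the root of its F, and 95% intervals from the t distribution with the degrees of freedom of the test. DESeq2 1.42.0 was an alternative, with its size factors in edgeR, other filters, 1 fit over all samples, all 6 controls, a GC offset (lowess span 0.3), a replicate block and leaving out each replicate. The main fits of some comparisons were tested on simulated counts, which held no gradient with GC content or length. No 2 replicates agreed within sampling noise: the chi-square value per degree of freedom was 1.61 to 52.0 over 18 pairs.

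Genes given in every sample were those past the threshold in at least 2 comparisons of a knockout with control, the 3 largest changes past it in each single knockout comparison, and those of lowest p, up to 8 in all. Others were added where a test or alternative singled them out, after their values were seen.

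Whether replicate numbers pair samples was checked by the correlation of deviations from the group means. For ΔSCC4 and control A it was 0.74, 0.16 and 0.68 for numbers 1, 2 and 3, all over 0.1, so the numbers were taken to pair these samples. The pairing comes from the data alone. The pair of BMI1 and PCGF2 among the paralog balances was not run, as PCGF2 had no match. Promoters came from RefSeq (GRCh38.p14), and no coordinates were moved between builds.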

Additional observations from a re-analysis of the deposited data

Results flagged for a closer look

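In the 6 controls, 5 of 38 members had 1 sample far from the others, by the share of the range that its gap takes (limit 0.625 for 6 samples; chance flags about 1 in 20 groups). Control A sample 1 stood apart for 4: EZH2 was 78.9 CPM there against 89.4 to 93.0 CPM in the others (share 0.756), RBBP4 403 against 507 to 557 CPM (0.709), PCGF3 59.1 against 68.2 to 73.8 CPM (0.642), and SCMH1 68.9 against 60.5 to 63.3 CPM (0.655). DPY30 was 37.4 CPM in control A sample 2 against 31.8 to 33.6 CPM (0.664). Control A sample 1 is also the control with the highest GC gradient, Spearman's rho 0.70 over genes; the part of the gradient in these values was not tested. The interaction of WAPL and SCC4 passed the threshold for BMI1 (log2 difference -0.74) and RBBP7 (0.43), whose values and alternatives are given in the report. BMI1 passed in 16 of 21 alternatives and RBBP7 in 5 of 21.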

How the results depend on the processing

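Of 80 counts of members past the threshold under settings other than leaving out 1 library, 47 were within 1.5 times the count reported and 33 were not, and none of the named changes reversed. In ΔSCC4 against control A, where 2 passed, the count was 5 with the GC offset, 7 with all 6 controls, 8 in 1 fit over all samples, 19 with the replicate block and 17 with the replicate block and GC offset. In clone 1.14, where 4 passed, it was 1 in 1 fit over all samples and 10 with the replicate block and GC offset. In clone 3.3, where 0 passed, it was 3 with the GC offset, 1 in 1 fit over all samples and 1 without the libraries of high GC. In ΔWAPL/ΔSCC4 against control A, where 0 passed, it was 3 with the GC offset and 1 with the replicate block and GC offset. Against clone 3.3, where 0 passed, it was 2 by DESeq2, 5 with the GC offset, 3 with no filter, 1 in 1 fit over all samples, 3 with the replicate block and 4 with the replicate block and GC offset. Over both clones, where 2 passed, it was 4 by DESeq2, 6 with the GC offset, 1 with no filter, 5 in 1 fit over all samples and 0 with the replicate block. For the difference of the clones, where 0 passed, it was 2 with the GC offset and 2 with the replicate block and GC offset. For WAPL by SCC4, where 2 passed, it was 1 with the size factors of DESeq2, 1 with at least 10 counts in every sample, 1 with no filter, 8 with the GC offset, 4 in 1 fit over all samples, 1 with the replicate block, 8 with the replicate block and GC offset and 1 without the libraries of high GC. The last fits were added after seeing the data. The share of all genes that passed moved with the setting too, in ΔSCC4 from 9.49% in the main fit to 46% with the replicate block. Where this report gives no such share, for a setting or a left-out library, a count is not a result about the members. The cause of these moves was not tested.

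Leaving out 1 replicate at a time gave 0 to 1 members in clone 3.3, 0 to 14 in clone 1.14, 0 to 4 in ΔSCC4, 0 to 1 in ΔWAPL/ΔSCC4 against control A and 0 to 3 against clone 3.3, 0 to 5 over both clones, 0 to 1 for the difference of the clones, 0 to 3 for WAPL by SCC4 and 0 to 1 between the controls. Of the named changes, 54 of 84 such fits kept the direction and lost the call. The block correlations in the other comparisons were not all over 0.1, as for clone 1.14 (0.07, 0.37 and 0.23) and clone 3.3 (-0.57, -0.01 and -0.56), so the block is no pairing there. The 24 paralog balances moved by less than 1 SD under every alternative run, but the direction of some was not stable. Leaving out 1 library changed the sign of KMT2A to KMT2B in clone 3.3 (difference from control A -0.33 to 0.29). It also changed that of KDM6A to KDM6B in ΔWAPL/ΔSCC4 (-0.17 to 0.24). Depth limits CBX7 most, whose lowest count was 68.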
